A study of Mus musculus with 45 samples.

Results

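The 10 genes described here encode enzymes of glycolysis and the lactate dehydrogenase subunit that follows it: the hexokinases *Hk1* and *Hk2*, glucose-6-phosphate isomerase *Gpi1*, the liver-type phosphofructokinase *Pfkl*, aldolase A (*Aldoa*), *Gapdh*, phosphoglycerate kinase 1 (*Pgk1*), enolase 1 (*Eno1*), the muscle-type pyruvate kinase gene *Pkm* and lactate dehydrogenase A (*Ldha*). They were taken by symbol from 55385 genes listed for every library, and all 10 passed the filter on low counts at each stage. The study asked what the transcription factor GABPA does in mouse embryos before implantation and in naive embryonic stem cells, by removing the protein. Its 45 samples include 18 RNA-seq libraries, which are the ones used here.

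All RNA libraries came from *Gabpa*-dTAG/dTAG material, in which a degron tag is fused to GABPA on both alleles, controls included. The groups were late two-cell embryos treated from 6 to 30 hpf (hours post fertilisation), morulae treated from the four-cell stage at 42 hpf, E4.5 ICM (inner cell mass freed from its trophectoderm by immunosurgery, treated from 84 hpf and collected at 100 hpf, which the study calls the mid-blastocyst, while the labels say E4.5) and 2iES cells (E14 mouse embryonic stem cells in 2i and LIF, from picked single clones). Each was given the degrader dTAG13 (1 μM for embryos, 0.5 μM for 24 h for 2iES cells) or its vehicle DMSO, with 3 and 3 libraries at the late two-cell stage and 2 and 2 in each other group. The embryos came from a mouse line that the study backcrossed to C57BL/6J for at least 2 generations. An embryo or ICM library pools cells: EPI (epiblast) and PrE (primitive endoderm) cells are mixed in the ICM. The study calls its replicates biological, but the labels do not say that they came from separate litters or cultures, so p-values measure the spread between these libraries, which may be technical.

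Glycolysis splits glucose into pyruvate. Hexokinase traps glucose in the cell and phosphofructokinase makes the committed step, both spending ATP, while phosphoglycerate kinase and pyruvate kinase give ATP back and *Gapdh* makes NADH. Lactate dehydrogenase reduces pyruvate to lactate and so returns NAD+. Cleavage-stage mouse embryos are known to rely on pyruvate and lactate and to take up more glucose as they form a blastocyst, and naive stem cells use both glycolysis and respiration.

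Expected counts summed to 9457889 to 12382653 per morula library and to between 18265991 and 27660050 in the others. The authors' RSEM tables also give TPM, a level scaled to depth and to transcript length, which can be compared between genes. Summed over the 8 late two-cell markers, such as *Zscan4* genes, TPM was 240 to 680 in late two-cell libraries and 3.58 to 101 elsewhere. The 11 EPI markers reached 899 to 924 TPM in control ICM and 613 to 709 in control 2iES cells, and the 9 PrE markers reached 578 to 587 TPM in control ICM and 3.39 to 5.15 in control 2iES cells. The 10 cumulus cell markers summed to at most 25.8 TPM in any library. *Gabpa* mRNA does not check the labels, since dTAG13 acts on the protein: it lay at 87.3 to 116 TPM in late two-cell controls and 141 to 162 in their treated counterparts, 6.67 and 8.13 against 13.6 and 12.8 in morulae, 10.1 and 11.2 against 27.5 and 27.3 in ICM, and 7.37 and 5.76 against 11.3 and 11.1 in 2iES cells. It was higher with dTAG13 in every library of each stage (log2 fold changes of 0.52, 0.74, 0.95 and 0.93, with adjusted p of 0.0124, 0.152, 7.77e-19 and 0.00136 by edgeR).

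On GRCm38, *Gpi1* lies at chr7:34201330-34230336 (minus strand), *Ldha* at chr7:46841475-46855627 (plus) and *Aldoa* at chr7:126795234-126800751 (minus). *Hk2* lies at chr6:82725025-82774454 (minus) and *Gapdh* at chr6:125161715-125166467 (minus), *Hk1* at chr10:62268855-62379908 (minus) and *Pfkl* at chr10:77986947-78010083 (minus), *Eno1* at chr4:150236721-150248879 (plus), *Pkm* at chr9:59656368-59679375 (plus) and *Pgk1* at chrX:106187100-106203699 (plus). Several have processed copies in the genome. Of their 31-base words, the share that also occurs in some other gene's transcripts was 54.7% for *Pgk1*, 34.7% for *Pkm*, 28.5% for *Eno1*, 28.1% for *Gapdh*, 21.6% for *Gpi1*, 19.6% for *Ldha* and 17.0% for *Aldoa*, and at most 1.45% for *Hk1*, *Hk2* and *Pfkl*. Of the counts of *Gapdh* and its 43 copies together, 85 to 98.2% were given to *Gapdh*, and of those of *Eno1* and its 2 copies 79.3 to 98.1% to *Eno1*, so both are uncertain to that extent. The kits keep no strand: 11.5% of the exonic bases of *Gpi1* overlap the antisense lincRNA *Gm26762*, and 15.3% of those of *Pkm* overlap *Gm49759* on its own strand.

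GABPA binds sequences with a GGAA core, of which CCGGAAGT is a full form, and the hypoxia-inducible factors, known regulators of glycolytic genes, bind sequences with the core ACGTG. RefSeq promoter windows (GRCm38.p6, 250 bases before to 50 after a start) were found for all 10 genes, 17 windows in all, and both strands were searched. CCGGAAGT was in the windows of 0 of 10 members and in those of 4.31% of all 27025 genes, and its 7-base part CCGGAAG in 0 of 10 and 9.93%. The shorter CGGAAG was in *Gpi1*, *Pkm* and *Hk1*, and in 18.8% of all genes. ACGTG was in *Hk2*, *Gapdh*, *Ldha*, *Aldoa*, *Pkm*, *Hk1* and *Pgk1*, and in 21.8% of all genes. The 10 members had 17 windows, while all 27025 genes had 32851, so a member had more places for a match. By window, ACGTG was in 19.6% of all, and overlapping windows of *Aldoa* share the same site. Printed here are 4 windows: *Ldha* and *Aldoa*, the members that fell furthest in 2iES cells, with ACGTG (or CACGT, its reverse) in capitals, and *Pkm* and *Gpi1*, with CGGAAG (or CTTCCG) in capitals. CACGTG reads the same on both strands and so holds both forms. A match describes letters only, and binding was not analysed here.
Ldha, chr7:46845554-46845853, plus strand: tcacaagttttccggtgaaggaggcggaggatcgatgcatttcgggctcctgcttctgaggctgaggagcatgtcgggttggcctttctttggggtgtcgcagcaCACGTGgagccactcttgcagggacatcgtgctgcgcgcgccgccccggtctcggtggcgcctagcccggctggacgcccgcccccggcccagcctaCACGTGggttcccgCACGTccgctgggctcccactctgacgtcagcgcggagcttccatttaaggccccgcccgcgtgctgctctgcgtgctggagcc
Aldoa, chr7:126799205-126799504, minus strand: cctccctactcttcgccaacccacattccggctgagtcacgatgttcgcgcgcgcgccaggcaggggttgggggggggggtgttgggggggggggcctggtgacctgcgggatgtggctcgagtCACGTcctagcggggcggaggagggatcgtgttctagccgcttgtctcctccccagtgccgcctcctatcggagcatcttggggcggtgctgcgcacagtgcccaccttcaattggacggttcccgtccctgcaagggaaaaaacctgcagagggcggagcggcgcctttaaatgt
Pkm, chr9:59656326-59656625, plus strand: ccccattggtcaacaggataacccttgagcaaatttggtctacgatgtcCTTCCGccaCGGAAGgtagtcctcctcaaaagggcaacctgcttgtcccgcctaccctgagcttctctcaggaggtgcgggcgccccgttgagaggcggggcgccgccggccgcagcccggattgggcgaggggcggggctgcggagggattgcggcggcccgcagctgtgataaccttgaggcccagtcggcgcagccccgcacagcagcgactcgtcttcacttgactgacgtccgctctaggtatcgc
Gpi1, chr7:34230287-34230586, minus strand: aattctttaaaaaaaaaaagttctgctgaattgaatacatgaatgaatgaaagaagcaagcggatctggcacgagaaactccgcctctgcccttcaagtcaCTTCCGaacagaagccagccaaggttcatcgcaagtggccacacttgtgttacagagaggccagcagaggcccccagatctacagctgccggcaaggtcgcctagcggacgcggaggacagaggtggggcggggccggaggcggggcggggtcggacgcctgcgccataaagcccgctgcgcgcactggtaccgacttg

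The mRNA of these enzymes was scarce in late two-cell embryos and abundant in ICM and 2iES cells. In control libraries their TPM summed to 231, 216 and 231 in late two-cell embryos, 430 and 478 in morulae, 2242 and 2320 in ICM, and 4156 and 3351 in 2iES cells. With dTAG13 the sums were 276, 241 and 249, then 450 and 449, then 1987 and 1956, then 1964 and 1890. The 2 treated 2iES libraries thus lay at the level of the treated ICM libraries, while the control 2iES libraries lay well above the control ICM. *Gapdh* alone held 22.2% of the controls' sum at the late two-cell stage, 26.7% in morulae, 42.7% in ICM and 48.5% in 2iES cells.

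**Figure D1:**
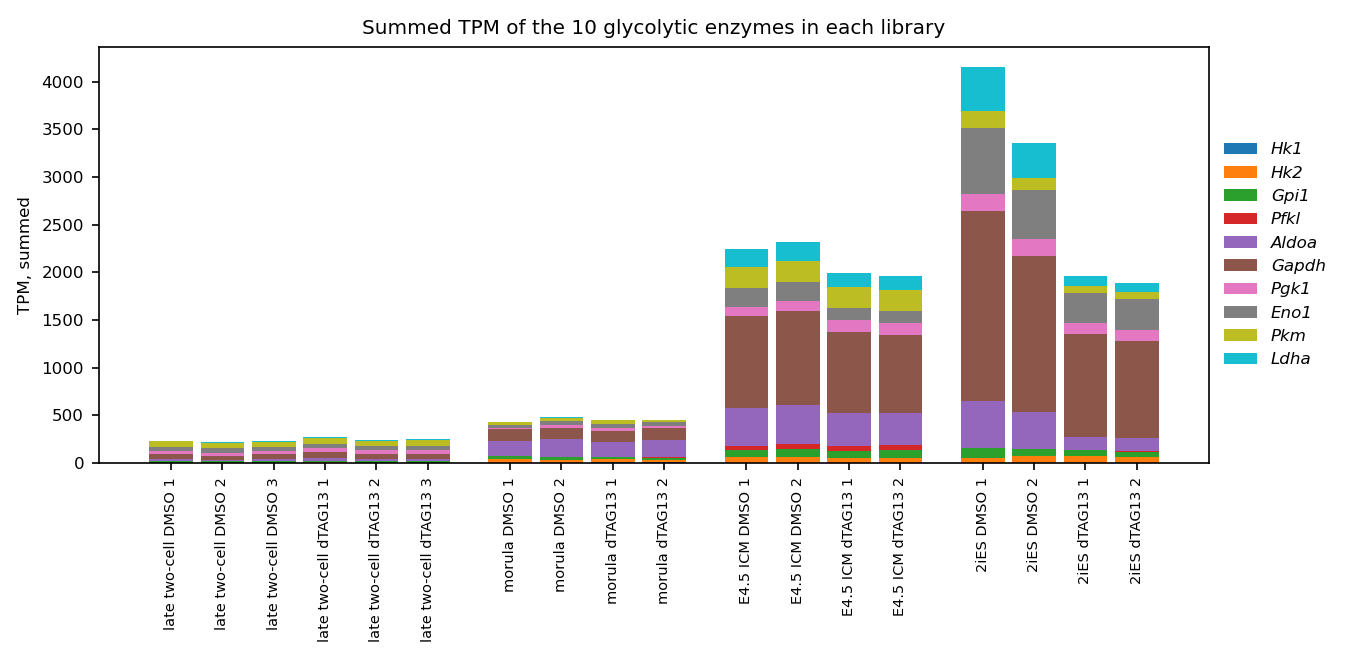
Stacked bars of the TPM of the 10 enzymes in each of the 18 libraries, by stage, treatment and replicate. The sum is 216 to 276 at the late two-cell stage, 430 to 478 in morulae and 1956 to 2320 in ICM, and in 2iES cells it is 4156 and 3351 with DMSO against 1964 and 1890 with dTAG13.

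The order of the enzymes changed between control stages. At the late two-cell stage *Pkm* (54.0 ± 3.70 TPM, SD, n = 3), *Gapdh* (50.2 ± 7.78) and *Eno1* (48.7 ± 4.25) led and their libraries overlapped. *Pgk1* (30.8 ± 2.56), *Aldoa* (16.1 ± 4.88), *Gpi1* (13.6 ± 1.20) and *Ldha* (7.91 ± 2.56) followed, and *Pfkl* (2.53 ± 0.284), *Hk1* (1.28 ± 0.185) and *Hk2* (0.867 ± 0.312) were lowest, with *Aldoa* overlapping both *Gpi1* and *Ldha*, and *Hk1* reaching down to the highest *Hk2*. In morulae *Aldoa* led at 162 and 187 TPM, before *Gapdh* at 121 and 122. *Eno1* (25.9 and 44.0), *Hk2* (36.5 and 30.6) and *Pkm* (31 and 32.0) overlapped below them, *Gpi1* (27.8 and 25.7) overlapped with *Eno1*, and lower still were *Pgk1* (15.8 and 24.7), *Ldha* (6.22 and 7.84), *Hk1* (2.95 and 2.84) and *Pfkl* (1.38 and 1.5). In ICM *Gapdh* led at 963 and 986 TPM, before *Aldoa* at 401 and 415, *Pkm* at 218 and 226, and *Eno1* (194 and 201) and *Ldha* (190 and 200), which overlapped. In 2iES cells *Gapdh* (2001 and 1639), *Eno1* (693 and 515), *Aldoa* (492 and 389) and *Ldha* (464 and 359) led, and *Aldoa* and *Ldha* overlapped. *Hk1* was lowest in ICM (1.34 and 1.58 TPM) and 2iES cells (1.17 and 1.03).

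**Figure D2:**
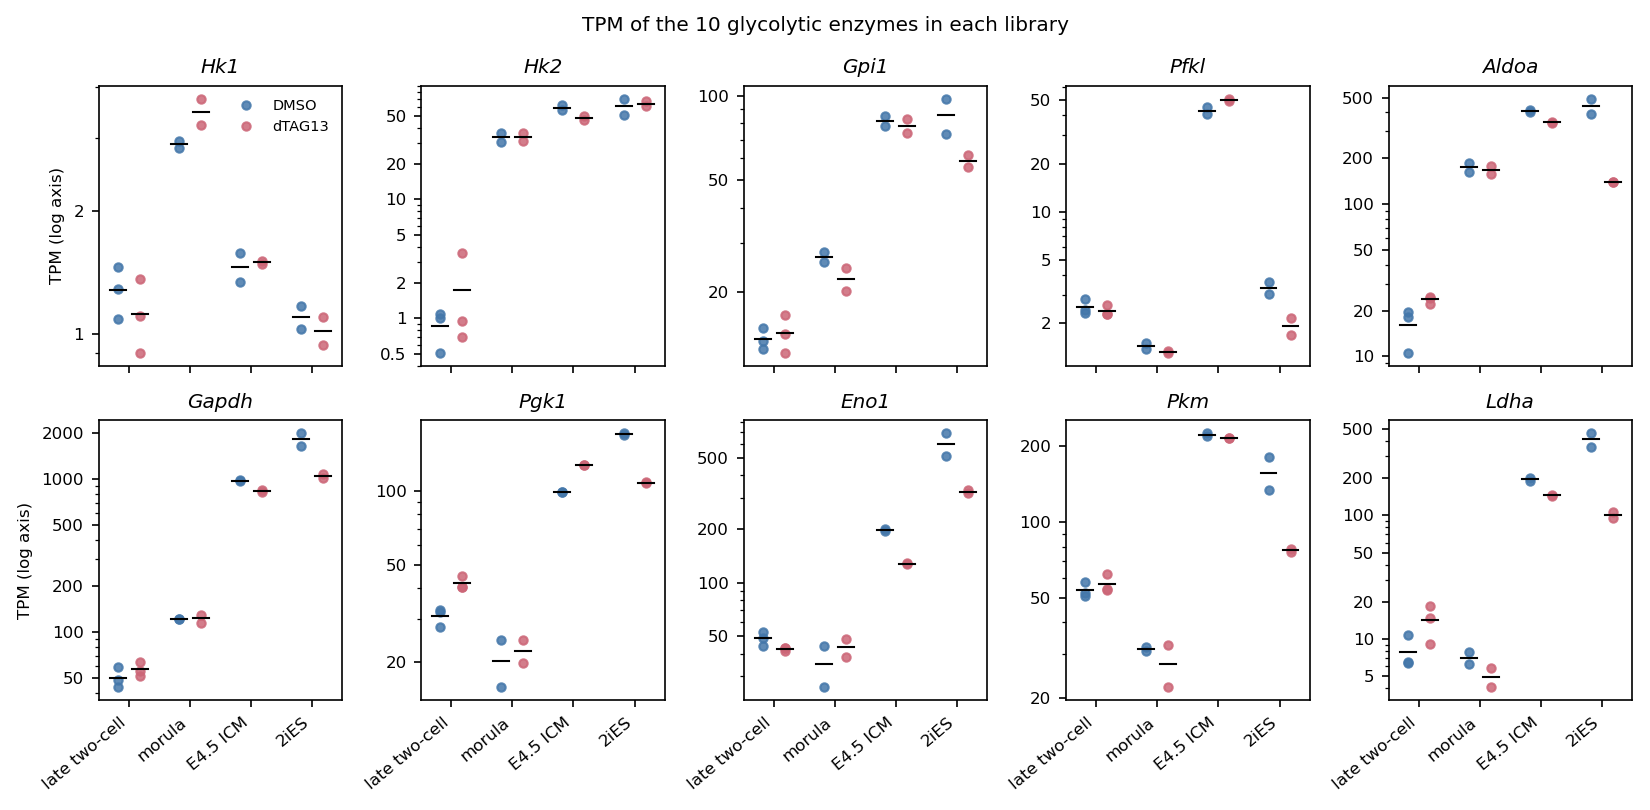
TPM (log axis, a scale for each gene) of each enzyme in each library by stage, with DMSO libraries in blue, dTAG13 libraries in red and the group mean as a bar. *Hk2* and *Aldoa* step up by the morula and *Ldha* and *Pfkl* by the ICM, and in 2iES cells the treated libraries of *Ldha* (105 and 94.9) and *Aldoa* (139 and 140) lie below the controls.

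Between control morulae and late two-cell embryos 5 of 10 members were higher and 0 lower by edgeR at an adjusted p under 0.05, against 30.4% of all genes tested that were higher and 39.8% lower. *Hk2*, the inducible hexokinase, rose most (log2 fold change 5.80, SE 0.281, adjusted p 6.34e-08), from 1.00, 0.510 and 1.09 TPM to 36.5 and 30.6. *Aldoa* rose by 3.80 (SE 0.231, adjusted p 2.55e-07), *Gapdh* by 1.27 and *Gpi1* by 1.01. *Hk1* rose by 2.30 on counts (adjusted p 1.85e-04) but by 0.78 on log2(TPM + 1). The added 1 is near its TPM, which went from 1.46, 1.09 and 1.29 to 2.95 and 2.84. The length RSEM gave the gene also differed, at 1326, 3408 and 2719 bases in late two-cell controls and 4104 and 4124 in morula controls. The part of each in the smaller value was not tested. The other 5 did not pass (1, *Pkm*, was lower at an unadjusted p under 0.05 and by DESeq2), with log2 fold changes of -0.36 (*Pfkl*) to 0.34 (*Ldha*). Without morula DMSO replicate 2, whose *Eno1* and *Pgk1* were the higher, both passed as lower in morulae (-0.59 and -0.61).

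From morula to ICM 8 of 10 members rose and 1 fell, where 31.4% of genes tested were higher and 30.3% lower. *Pfkl* went from 1.38 and 1.5 TPM to 40.7 and 44.9 (log2 fold change 4.33, SE 0.132, adjusted p 3.51e-05) and *Ldha* from 6.22 and 7.84 to 190 and 200 (4.26, SE 0.140, adjusted p 3.73e-05). *Gapdh* rose by 2.86, *Pkm* by 2.29, *Eno1* by 1.98, *Pgk1* by 1.76, *Gpi1* by 1.51 and *Aldoa* by 0.71. *Hk1* fell by 1.55, and *Hk2* did not pass (0.32, SE 0.116, adjusted p 0.0564). So the 2 large rises of *Hk2* and *Aldoa* came by the morula, and those of *Ldha* and *Pfkl* after it.

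Control 2iES cells differed from control ICM most in *Pfkl*, at 3.63 and 3.06 TPM (log2 fold change -3.17, SE 0.159, adjusted p 8.41e-05). In all, 7 of 10 members were higher and 1 lower in 2iES cells, against 31.3% of genes tested that were higher and 33.7% lower. *Eno1* was higher by 2.15 (SE 0.131, adjusted p 1.29e-04), *Ldha* by 1.61, *Gapdh* by 1.43 and *Pgk1* by 1.32, while *Pkm* (0.04) and *Hk1* (0.18) did not pass. The smaller differences of *Gpi1* (0.75), *Aldoa* (0.64) and *Hk2* (0.59) passed with TMM scaling but not with library totals, which moved the median of all genes by -0.39, and *Gpi1* had 78.6 and 85.1 TPM in ICM against 97.9 and 73.6 in 2iES cells. *Pkm* was lower by 0.15 without 2iES DMSO replicate 1 and higher by 0.24 without replicate 2, each past the test. Stage, treatment window and preparation change together, so they cannot be told apart in these comparisons.

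In 2iES cells 7 of 10 enzymes were lower after 24 h of dTAG13 and 0 were higher (also 0 by DESeq2 and at an unadjusted p under 0.05), where 28.1% of genes tested were lower and 26.5% higher. By the study's cut-offs (adjusted p under 0.05, at least a 2-fold change, and a mean FPKM of 1 or more, taken here in either group) 2 of 10 were lower, *Ldha* and *Aldoa*, where 15.6% of genes tested were lower and 12.4% higher. The median log2 fold change of the members was -0.72, beside 0.03 for all genes tested. In bulk libraries fewer cells of a type and less RNA per cell cannot be told apart.

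*Ldha*, whose subunit favours the making of lactate, fell most. It stood at 464 and 359 TPM with DMSO and 105 and 94.9 with dTAG13 (log2 fold change -1.97, SE 0.138, adjusted p 1.02e-04 by edgeR, 3.92-fold). *Aldoa*, which cleaves fructose-1,6-bisphosphate, stood at 492 and 389 TPM with DMSO and 139 and 140 with dTAG13 (-1.58, SE 0.127, adjusted p 1.61e-04, 2.99-fold). The treated libraries of both lay far below the controls and close to each other.

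In the upper part of the pathway, *Gpi1*, which turns glucose-6-phosphate into fructose-6-phosphate, had 97.9 and 73.6 TPM with DMSO and 61.8 and 55.7 with dTAG13 (log2 fold change -0.73, SE 0.162, adjusted p 0.00844). It did not pass without 2iES dTAG13 replicate 2 (adjusted p 0.0522). *Pfkl* had 3.63 and 3.06 TPM with DMSO against 2.16 and 1.68, apart from each other, but did not pass (-0.58, SE 0.225, adjusted p 0.0648), and passed as lower in 6 of 14 alternatives, among them the fit without 2iES DMSO replicate 2 (-0.81). The hexokinases did not pass: *Hk1* had 1.17 and 1.03 TPM against 1.10 and 0.940 (-0.25, SE 0.202, adjusted p 0.32). *Hk2* had 51.3 and 70.4 TPM against 67.2 and 60.9, with groups that overlap (0.34, SE 0.171, adjusted p 0.13). It passed as higher in 3 of 14 alternatives, upper-quartile scaling among them, and its value was 0.60 without 2iES DMSO replicate 2. It was the single member with a positive value in 2iES cells.

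In the lower part of the pathway each of 4 members fell by less than 2-fold. Over 14 alternatives the lowest log2 fold changes were -1.15 for *Pkm* and -1.07 for *Eno1*, past 2-fold, and -0.85 for *Gapdh* and -0.66 for *Pgk1*. *Gapdh*, the enzyme that makes NADH, had 2001 and 1639 TPM with DMSO and 1083 and 1022 with dTAG13 (log2 fold change -0.70, SE 0.110, adjusted p 0.00212). *Pgk1*, the first ATP-yielding enzyme, had 172 and 169 TPM against 107 and 108 (-0.58, SE 0.092, adjusted p 0.00212). *Eno1*, which makes phosphoenolpyruvate, had 693 and 515 TPM against 318 and 329 (-0.86, SE 0.139, adjusted p 0.00238). *Pkm*, the last step to pyruvate, had 181 and 134 TPM against 78.3 and 76.2 (-0.95, SE 0.141, adjusted p 0.00176). In these 4 genes every treated library lay below both controls, a separation that was not counted over all genes. 2iES DMSO replicate 1 was above replicate 2 for 9 of 10 members, *Hk2* being the exception.

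**Figure D3:**
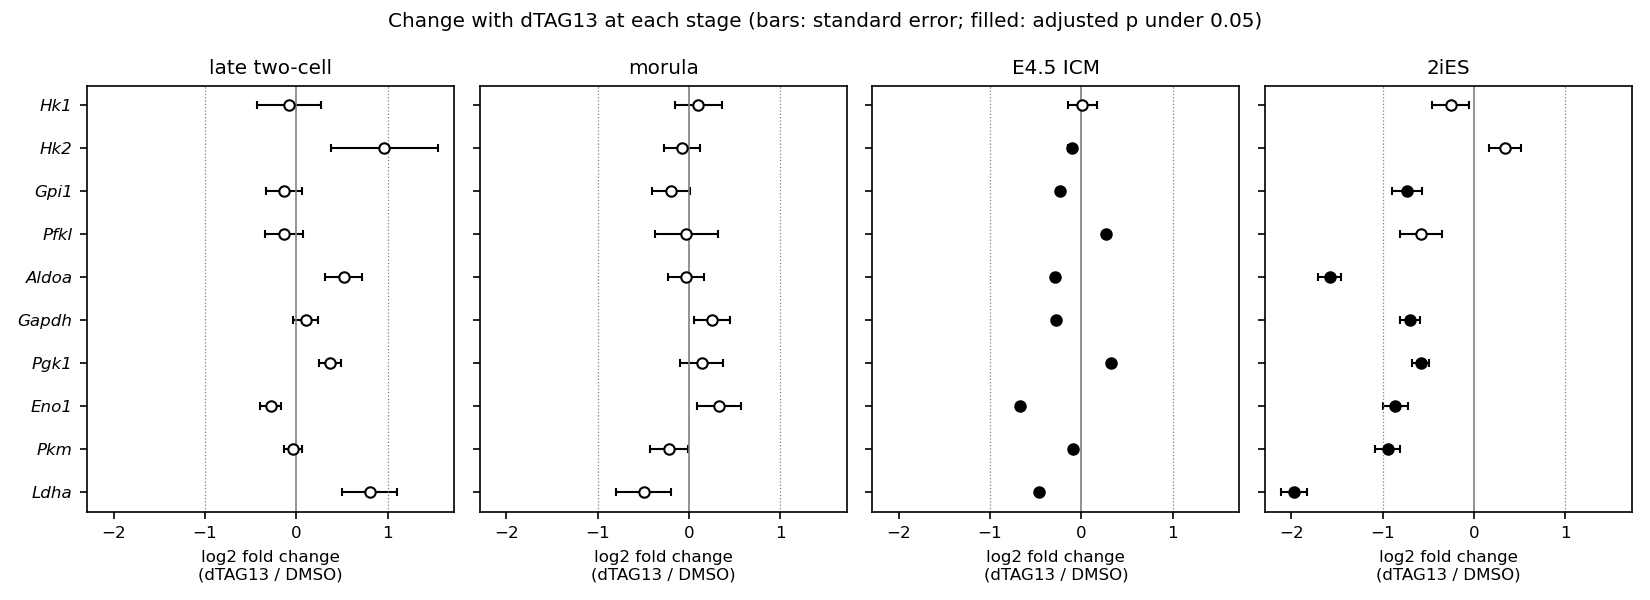
Log2 fold change of dTAG13 against DMSO for each enzyme at each stage, with its standard error, filled where the adjusted p is under 0.05 by edgeR and with dotted lines at a 2-fold change. In 2iES cells 7 of 10 are filled and to the left, in ICM 7 are filled to the left and 2 to the right within the dotted lines, and none is filled at the earlier stages.

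In the E4.5 ICM the changes were small. There 7 of 10 enzymes were lower and 2 higher with dTAG13, where 38.5% of genes tested were lower and 38.4% higher, and 0 of 10 reached a 2-fold change, where 13.2% of genes tested were lower and 12.1% higher by that rule. *Eno1* fell most, from 194 and 201 TPM to 126 and 129 (log2 fold change -0.68, SE 0.028, adjusted p 1.25e-22), and *Ldha* from 190 and 200 to 147 and 144 (-0.46, SE 0.030, adjusted p 1.88e-16). *Aldoa* (-0.29), *Gapdh* (-0.28), *Gpi1* (-0.23), *Hk2* (-0.10) and *Pkm* (-0.09) also passed as lower. *Pgk1* rose from 98.9 and 99.1 TPM to 127 and 127 (0.32, SE 0.031, adjusted p 1.70e-11) and *Pfkl* from 40.7 and 44.9 to 49.2 and 50.9 (0.27, SE 0.034, adjusted p 5.65e-09), while *Hk1* did not pass (0.01, SE 0.162). The median of the members was -0.17, beside 0.01 for all genes tested.

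The ICM replicates lay so close together (a biological coefficient of variation of 0.0237, against 0.159 in 2iES cells) that small differences pass. When all 18 libraries shared 1 estimate of the spread, 1 member was lower (*Eno1*, -0.66) and 0 higher. *Hk2* and *Pkm* came to 0.00 and 0.01 with upper-quartile scaling, which moved the median of all genes by 0.10. Marker genes moved with treatment in ICM: 11 of 11 TE (trophectoderm) markers were higher, with sums of 99.2 and 108 TPM in controls and 1025 and 1027 with dTAG13 and with no marker at 0 in either group. All 11 EPI markers were lower (899 to 924 against 532 to 538 TPM), and 6 of 9 PrE markers were higher and 2 lower (578 to 587 against 1098 to 1108 TPM). In 2iES cells the sums were 161 to 192 against 206 to 218 TPM for TE markers, 613 to 709 against 450 to 489 for EPI markers and 3.39 to 5.15 against 4.54 to 4.95 for PrE markers. The part of cell make-up in the enzymes' values was not tested.

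At the late two-cell stage 0 of 10 members passed in either direction, where 7.24% of genes tested were lower and 1.32% higher. At an unadjusted p under 0.05, *Aldoa*, *Ldha* and *Pgk1* were higher and *Eno1* lower (4 of 10, where 3706 of 17421 genes had such a p in either direction), and DESeq2 called 2 higher (*Ldha* and *Pgk1*), where it called 526 of all genes higher. *Pgk1* had 27.9, 32.6 and 31.9 TPM with DMSO and 40.4, 40.5 and 44.8 with dTAG13, groups that do not overlap (log2 fold change 0.37, SE 0.125, adjusted p 0.108 by edgeR). *Aldoa* had 18.2, 10.5 and 19.5 against 24.3, 22.1 and 24.6 TPM, also apart (0.52, SE 0.206, adjusted p 0.175). *Ldha* had 6.36, 6.51 and 10.9 against 18.6, 9.09 and 14.8 TPM, which overlap (0.81, SE 0.300, adjusted p 0.148). *Hk2* had 0.510 to 1.09 TPM with DMSO and 3.54, 0.950 and 0.700 with dTAG13. Its log2 fold change of 0.97 (SE 0.583, adjusted p 0.397) rests on dTAG13 replicate 1, with 138 counts beside 37 and 29, and is -0.01 without it. The median of the members was 0.03, beside 0.02 for all genes tested.

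In morulae 0 of 10 members passed, where 0.205% of genes tested were lower and 0.161% higher, and 0 of 10 had an unadjusted p under 0.05 or were called by DESeq2. Log2 fold changes ran from -0.49 (*Ldha*, 6.22 and 7.84 against 5.85 and 4.07 TPM, SE 0.300) to 0.34 (*Eno1*, 25.9 and 44.0 against 48.5 and 38.3 TPM, SE 0.241). *Aldoa*, already the leading member, had 162 and 187 against 158 and 179 TPM (-0.03, SE 0.195), and *Hk2* had 36.5 and 30.6 against 36.1 and 31 (-0.08, SE 0.196). The standard errors of the 10 members ran from 0.195 to 0.349, so differences of that size were within the error of 2 libraries a group.

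The difference between stages was tested as an interaction. The 2 stages of a fit shared 1 estimate of the spread, a biological coefficient of variation of 0.112 for ICM with 2iES cells. In the stages alone it was 0.0237 and 0.159, so the SEs below may understate the spread in 2iES cells. The SE of *Pfkl* was 0.193 in the joint fit, beside 0.225 in 2iES cells alone. The effect was lower in 2iES cells than in ICM for 7 of 10 members, where 20.1% of genes tested had a lower and 21.8% a higher effect in 2iES cells. The largest were *Ldha* (difference of log2 fold changes -1.49, SE 0.137, adjusted p 5.88e-05) and *Aldoa* (-1.27, SE 0.127, adjusted p 9.17e-05), and *Pgk1* (-0.88), which rose in ICM and fell in 2iES cells, and *Pfkl* (-0.82), which rose in ICM and did not pass in 2iES cells, were among the 7. *Eno1* did not pass (-0.16, SE 0.144, adjusted p 0.403). Between ICM and the late two-cell stage *Ldha* and *Aldoa* passed (2 of 10, where 11.3% of genes tested were lower), between ICM and morula *Eno1* did (1 of 10, where 15.7% were lower), and between morula and late two-cell 0 of 10 did, where 0.206% were lower and 2.96% higher, DESeq2 also called 0 and 2 had an unadjusted p under 0.05. The 2 calls against the late two-cell stage were both lost without any 1 of the 4 ICM libraries or late two-cell dTAG13 replicate 1 or 3. That of *Aldoa* was also lost without late two-cell dTAG13 replicate 2, and that of *Ldha* without late two-cell DMSO replicate 1 or 2. The call for *Eno1* was lost without any 1 of the 4 ICM libraries or morula dTAG13 replicate 1.

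The lactate dehydrogenase mRNAs exchanged places. *Ldhb* encodes the subunit that favours the use of lactate, and *Ldhc* the germ cell form. As a share of the TPM of the 3 genes, *Ldha* held 2.53 to 4.22% in late two-cell controls, 57.1 and 60.3% in control morulae, 94.4 and 95.4% in control ICM, and 70.1 and 68.3% in control 2iES cells. *Ldhb* held 82.8 to 84.9% at the late two-cell stage, at 208 to 218 TPM, and fell to 4.58 and 4.45 TPM in control morulae. With dTAG13 *Ldha* held 19.1 and 16.9% in 2iES cells. There *Ldhb* rose from 198 and 166 TPM to 445 and 465 (log2 fold change 1.23, SE 0.109, adjusted p 2.31e-04) while *Ldha* fell, and *Ldhb* held 80.7 and 83.0%. In ICM *Ldha* still held 92.9 and 92.4% with dTAG13, and *Ldhb* had 9.54 and 7.93 against 6.91 and 8.84 TPM (-0.31, adjusted p 0.0492).

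Phosphofructokinase changed its make-up as well. *Pfkl* held 56.7 and 59.6% of the TPM of *Pfkl*, *Pfkm* and *Pfkp* in control ICM and 70.1 and 70.5% with dTAG13, where *Pfkp* (the platelet form) fell from 29.1 and 28.4 to 15.2 and 15.3 TPM. In control 2iES cells *Pfkp* held 63.0 and 63.6%. It fell there from 12.0 and 10.7 to 6.19 and 4.41 TPM (log2 fold change -1.28, SE 0.154, adjusted p 7.40e-04), while *Pfkm* (the muscle form) rose slightly (0.48, SE 0.163, adjusted p 0.0442).

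**Figure D4:**
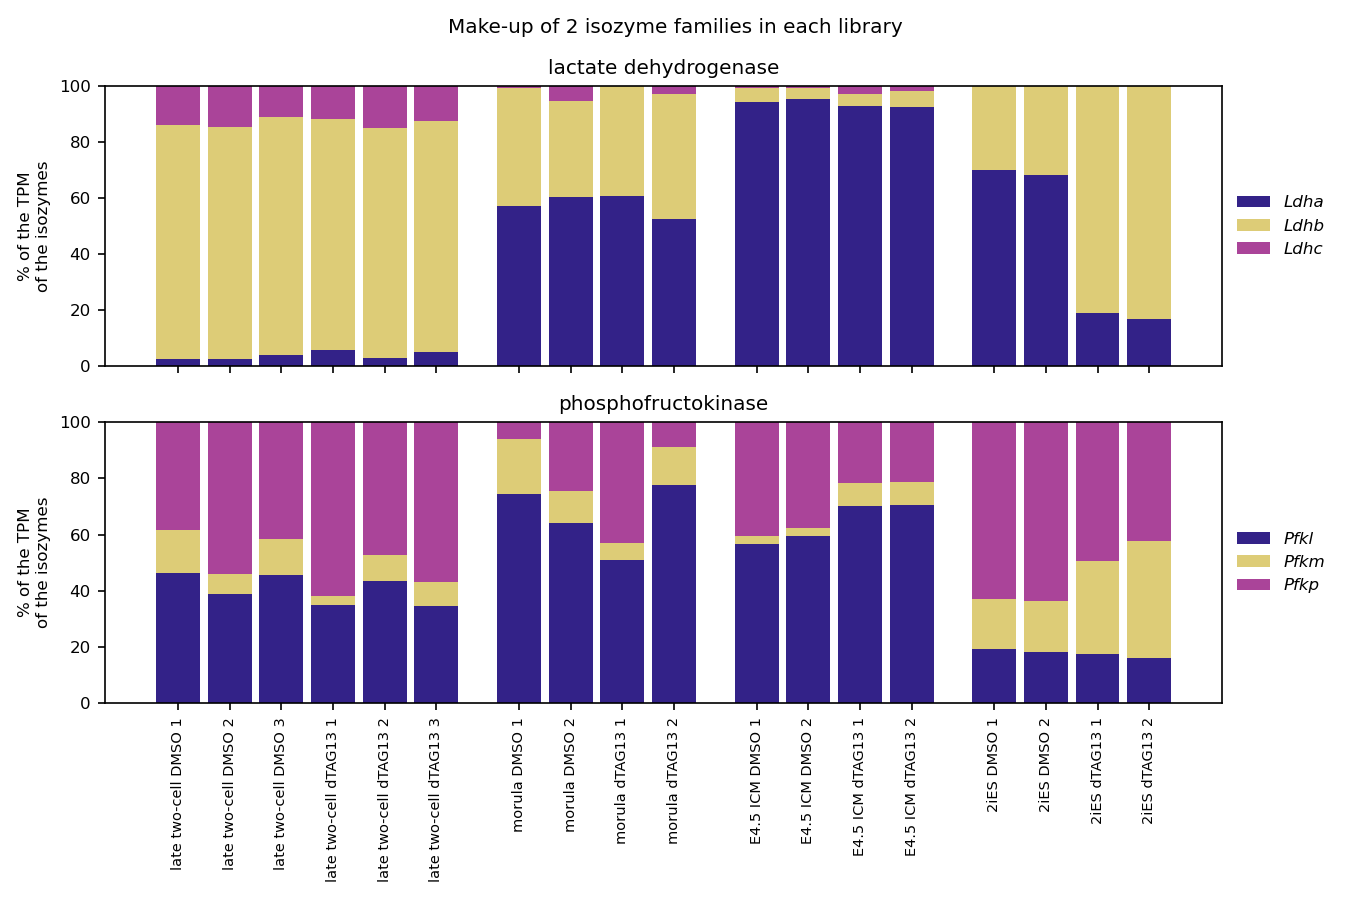
Share of each isozyme in the TPM of its family (percent) in each library, for lactate dehydrogenase and phosphofructokinase. In 2iES cells *Ldha* holds 70.1 and 68.3% in controls and 19.1 and 16.9% after dTAG13, while in ICM it stays above 92%.

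Of the other glycolytic enzymes and isozymes in the list, 10 of 17 were tested in 2iES cells, where 4 were lower and 3 higher, beside 28.1% and 26.5% of all genes. Triosephosphate isomerase *Tpi1*, which interconverts the triose phosphates that aldolase makes, fell from 213 and 195 TPM to 72.0 and 63.0 (log2 fold change -1.53, SE 0.109, adjusted p 1.09e-04), near the size of *Aldoa*. Phosphoglycerate mutase *Pgam1* fell from 514 and 401 to 317 and 302 TPM (-0.49, SE 0.126, adjusted p 0.0159), and *Eno3*, the muscle enolase, by 2.16. In ICM 5 of 10 tested were lower and 5 higher, beside 38.5% and 38.4% of all genes. There *Tpi1* had 67.7 and 71.7 against 82.5 and 86.2 TPM (0.22, SE 0.039, adjusted p 4.88e-06) and *Pgam1* differed by 0.06 (adjusted p 0.0328). In the same libraries *Eno3* (-3.80), *Pgam2* (-1.49), the muscle mutase, and *Aldoc* (-1.05), the brain aldolase, fell by more than 2-fold and *Pfkm* (1.49) rose by more. Of 12 tested in late two-cell embryos and of 9 in morulae, 0 passed by edgeR or DESeq2, with 4 and 0 at an unadjusted p under 0.05.

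The glucose transporters did not move together. In 2iES cells the widely expressed *Slc2a1* and *Slc2a3* had 11 and 10.1 against 8.22 and 9.51 TPM and 34.7 and 49.4 against 38.0 and 34.9 TPM, and neither passed (log2 fold changes -0.30 and -0.14, adjusted p 0.119 and 0.523). In ICM *Slc2a1* fell from 12.2 and 12.4 TPM to 4.61 and 4.78 (-1.45, SE 0.086, adjusted p 9.54e-18) and *Slc2a3* rose from 36.9 and 38.6 to 63.3 and 63.3 (0.71, SE 0.032, adjusted p 2.92e-21). Of 6 transport genes tested, 1 was lower in 2iES cells, the lactate carrier *Slc16a1* (-0.62, adjusted p 0.00725), and 0 higher, beside 28.1% and 26.5% of all genes. In ICM 2 were lower and 3 higher, beside 38.5% and 38.4% of all genes. *Slc2a1* and *Slc2a3* did not pass at the earlier stages. Of the TPM of the listed glucose transporters, 7.12 to 12.3 in late two-cell libraries, *Slc2a1* held 10.8 to 14.4% with DMSO and 5.23 to 6.61% with dTAG13. The shares of *Slc2a3* overlapped there.

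Of 15 regulators tested, 6 were lower and 5 higher in 2iES cells, beside 28.1% and 26.5% of all genes, and 5 were lower and 7 higher in ICM, near the 38.5% and 38.4% of all genes. *Myc*, a transcription factor known to act on glycolytic genes, fell from 9.78 and 6.52 TPM to 2.42 and 2.57 in 2iES cells (log2 fold change -1.62, SE 0.220, adjusted p 0.00119) and from 46.9 and 45.7 to 16.9 and 18.5 in ICM (-1.43, SE 0.052, adjusted p 2.43e-24). *Txnip*, which lowers glucose uptake, rose from 22.5 and 17.0 to 116 and 114 TPM in 2iES cells (2.33, SE 0.151, adjusted p 8.09e-05) and from 2.52 and 2.52 to 7.75 and 7.30 in ICM (1.77, SE 0.171, adjusted p 1.08e-11). *Pfkfb1*, of the enzymes that set fructose-2,6-bisphosphate, fell by 2.26 and 2.38, and *Pfkfb2* rose by 1.61 and 0.89. *Pfkfb4* rose in 2iES cells by 1.22 from 18 and 21 counts, and *Mlxip* rose in ICM by 1.07. *Pdk1*, which inhibits pyruvate dehydrogenase, fell in ICM by 1.53, and *Pdk4* rose in 2iES cells by 2.27 from 25 and 31 counts.

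*G6pdx*, the first enzyme of the pentose phosphate pathway, fell from 11.2 and 11.6 TPM to 2.23 and 3.20 in 2iES cells (log2 fold change -2.76, SE 0.172, adjusted p 6.96e-05) and from 15.1 and 13.7 to 5.77 and 4.86 in ICM (-1.54, SE 0.085, adjusted p 1.02e-18). The next enzyme, *Pgls*, fell by 1.05 in 2iES cells. Of 7 genes of the branch 3 were lower and 0 higher there, beside 28.1% and 26.5% of all genes. In ICM 2 genes of the branch were lower and 3 higher, near the share of all genes (38.5% and 38.4%). *Rpe*, from its later part, fell at the late two-cell stage from 26.0, 34.1 and 24.9 to 10.8, 11.9 and 11.8 TPM (-1.13, SE 0.158, adjusted p 0.00107), and was the 1 gene of the metabolic lists that passed there (also by DESeq2). Of 5 gluconeogenic genes tested in 2iES cells, *G6pc3* (-2.81) and *Pck2* (-2.33) were lower and *Fbp1* (4.01, from 7 and 13 counts), *Pcx* (1.38) and *Fbp2* (0.67) higher, beside 28.1% lower and 26.5% higher of all genes. The TPM of *Pcx* overlapped between the groups, at 1.51 and 0.190 with DMSO against 1.87 and 0.960. In ICM 4 of 5 tested were lower and 0 higher, beside 38.5% and 38.4% of all genes. There *Pck2* fell from 26.3 and 30.5 to 3.01 and 3.07 TPM (-3.13, SE 0.076, adjusted p 4.83e-30). Of the 7 pyruvate dehydrogenase genes 1 was lower in 2iES cells, *Pdha1* (-0.59), and 0 higher, beside 28.1% and 26.5% of all genes. In ICM 3 of them were lower and 1 higher, beside 38.5% and 38.4% of all genes.

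**Figure D5:**
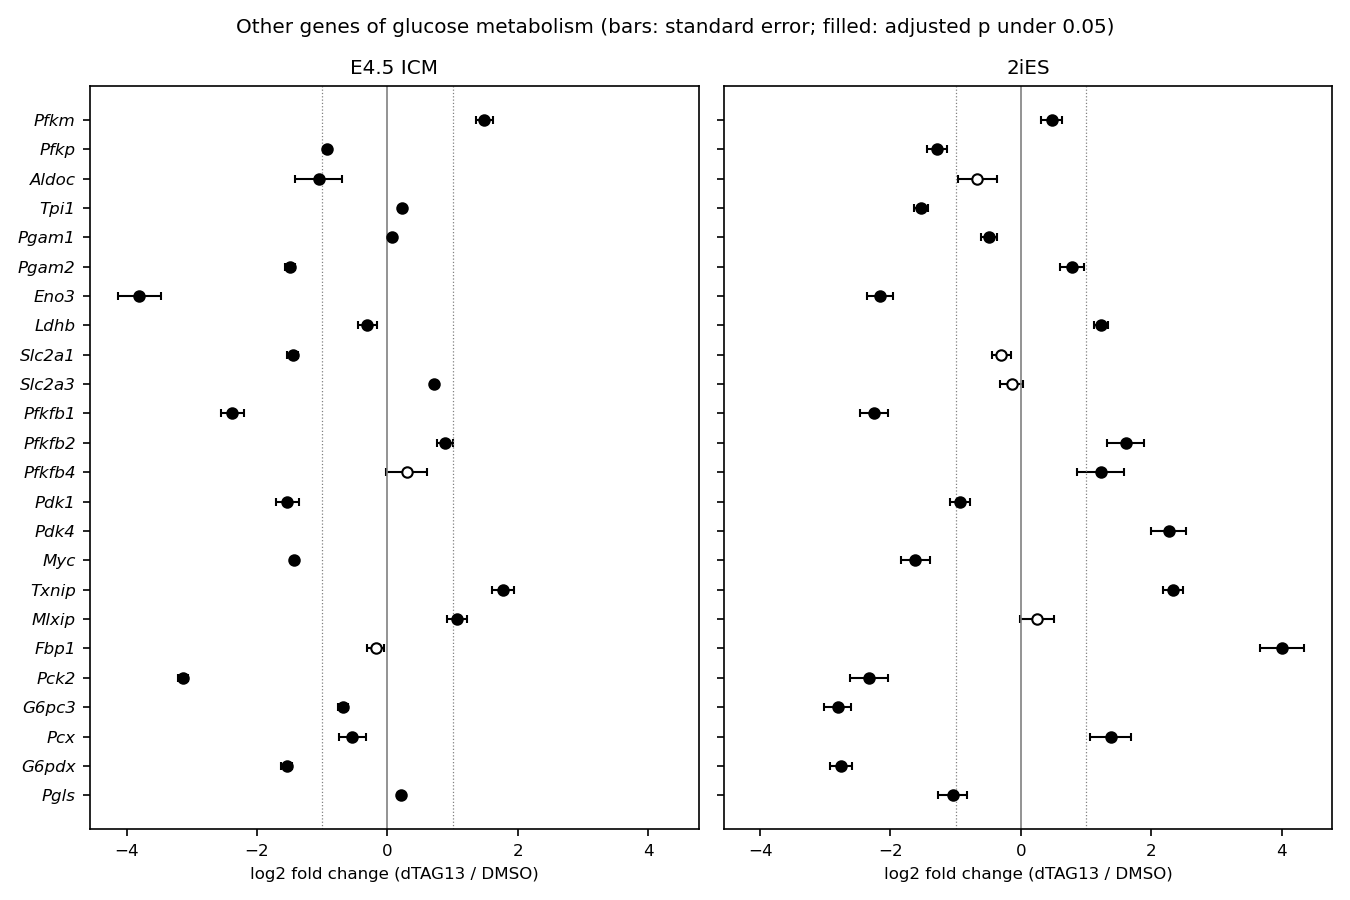
Log2 fold change of dTAG13 against DMSO, with its standard error, for genes of glucose metabolism outside the 10 enzymes in ICM and 2iES cells, filled where the adjusted p is under 0.05 (*Pdk4* in ICM, with 0 counts in both treated libraries, is not drawn). *Tpi1* is at -1.53 in 2iES cells and 0.22 in ICM, *Ldhb* at 1.23 and -0.31, and *Myc*, *Pfkfb1*, *Pck2* and *G6pdx* are below 0 in both.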

How the data were processed

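RNA-seq of 18 libraries was analysed from tables the authors deposited. By the study's methods, cDNA made with SMART-Seq v4 and fragmented with Nextera XT was sequenced in paired reads, trimmed with Trimmomatic 0.39, aligned to GRCm38 with STAR and quantified with RSEM, which shares out reads that fit several genes. The deposited values are expected counts, TPM and FPKM per gene. The genome sequence came from Ensembl by the study's data statement. The annotation is not given in the sources used here, and identifiers were named from GENCODE M21. The other samples of the series were not used here, and no protein sequences were used.

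Expected counts were rounded. Groups were compared with edgeR 4.0.16 (quasi-likelihood test, TMM scaling, R 4.3.3, limma 3.58.1) over genes that reached 10 counts in a number of libraries no lower than the size of the smaller group, with Benjamini-Hochberg adjustment across every gene tested. Tests are two-sided. An interaction term in a joint fit of 2 stages, with 1 estimate of the spread for both, tested whether effects differed. Alternatives changed the scaling, the filter, the tool (DESeq2 1.42.0, limma on log2(TPM + 1), voom), the libraries, the replicate block, the copies counted and the cut-offs. The deposited FPKM values served the cut-off of a mean of 1 in either group. An identifier of *Aldoa* with at most 5 counts a library was left out. Genes named outside the 10 enzymes are *Gabpa*, *Tpi1*, *Pgam1*, *Ldhb*, *Slc2a1*, *Slc2a3* and any listed gene that passed the study's cut-offs at a stage. *Ldhc*, *Slc16a1*, *Fbp2* and *Pdha1*, and *Pfkm*, *Pfkp* and *Pfkfb2* at stages where they passed the adjusted p alone, were named after their values were seen. The members and lists were chosen with earlier results of these data known. Same-numbered libraries were not shown to be pairs (r of their deviations of 0.05, 0.12 and 0.10 at the late two-cell stage, 0.03 in morulae, -0.05 in ICM and -0.23 in 2iES cells). Pairing was to be accepted where each r at the late two-cell stage was over 0.1, which 1 was not. Replicates differed by 1.62 to 16.1 times the sampling noise and were counted separately. The comparison of treatments within a stage was also run on simulated counts, with results that are not given here.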

Additional observations from a re-analysis of the deposited data

Results flagged for a closer look

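The effect of dTAG13 differed between stages by the test of the difference itself (edgeR, adjusted p over all genes) for 10 values, given here as differences of log2 fold changes. Between 2iES cells and ICM they were -1.49 for *Ldha* (adjusted p 5.88e-05), -1.27 for *Aldoa* (9.17e-05), -0.88 for *Pgk1* (9.66e-05), -0.83 for *Pkm* (0.00173), -0.82 for *Pfkl* (0.00792), -0.48 for *Gpi1* (0.0468) and -0.40 for *Gapdh* (0.0157). All 7 are lower in 2iES cells, and *Ldha*, *Aldoa*, *Pgk1*, *Pkm* and *Pfkl* passed in each of 15 alternatives, *Gapdh* in 11 and *Gpi1* in 8. Between ICM and the late two-cell stage they were -1.27 for *Ldha* (adjusted p 0.0327) and -0.81 for *Aldoa* (0.0332), and between ICM and morula -1.0 for *Eno1* (0.0214). Of 17 alternatives *Ldha* passed in 8 and *Aldoa* in 9, and *Eno1* passed in 9 of 15. These 3 are lower in ICM, and in the late two-cell and morula comparisons that enter them no member passed. Groups of 2 or 3 libraries are too small for a test of single libraries.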

How the results depend on the processing

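Members that passed were recounted under each alternative, leaving out each library in turn included. By the study's cut-offs 2 members were lower in 2iES cells and 0 were lower or higher in ICM. The count in 2iES cells depends on the fit, since *Pkm* reached -1.15 and *Eno1* -1.07 at the lowest among the alternatives. With all 18 libraries in 1 fit 1 was lower and 0 higher in ICM, and 2 were higher at the late two-cell stage, as with DESeq2, while library totals, no filter and upper-quartile scaling gave 1. In 2iES cells 1 (*Hk2*) was higher with upper-quartile scaling. The effect of upper-quartile scaling on the median of all genes was 0.12 at the late two-cell stage, 0.10 in ICM and 0.18 in 2iES cells. It brought *Hk2* and *Pkm* to 0.00 and 0.013 in ICM. In the comparison of morula with late two-cell controls 1 was lower with DESeq2 or library totals and 2 on log2(TPM + 1). Between 2iES cells and ICM 4 were higher with library totals and on log2(TPM + 1), where 2 were lower, *Pkm* by -0.51. The cause of these changes was not tested.

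For the interactions, ICM minus morula gave 2 lower with DESeq2, no filter, voom and the replicate block and 0 on log2(TPM + 1). ICM minus late two-cell gave 4 lower with DESeq2, voom and the replicate block and 1 on log2(TPM + 1). 2iES minus ICM gave 1 higher (*Hk2*) with no filter and voom.

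Leaving out 1 library, the members lower with dTAG13 numbered 6 to 8 in 2iES cells, 6 to 7 in ICM and 0 to 0 at both earlier stages, and those higher 0 to 1 in 2iES cells and 2 to 2 in ICM. Between control stages 0 to 2 were lower and 5 to 5 higher in morulae, 1 to 1 and 7 to 9 in ICM, and 1 to 2 and 6 to 8 in 2iES cells, with *Pkm* at -0.15 without 2iES DMSO replicate 1 and 0.24 without replicate 2. Interactions gave 5 to 8 lower and 0 to 1 higher for 2iES minus ICM, 0 to 2 and 0 to 1 for both ICM comparisons, and 0 to 0 and 0 to 1 for morula minus late two-cell. Without morula DMSO replicate 1 or 2, 2 were lower for ICM minus morula, and without replicate 1 there and replicate 2 for morula minus late two-cell 1 was higher.

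With the replicate number as a block, 8 members were lower in 2iES cells, *Pfkl* being added, and 7 lower and 2 higher in ICM. Over all genes the block gave 201 lower and 191 higher in morulae against 28 and 22 without it. At the late two-cell stage each library correlated best with its own number, a hint from the data only. With the 2iES numbers crossed, an alternative chosen after seeing the data, 8 members were lower and 1 higher, beside 4496 and 4421 genes in all. Of 1500 values of single members under alternatives, 1384 kept their side of the threshold, 58 lost and 54 gained a call and 4 turned. A value that passed in neither the main fit nor the alternative was counted as kept even where its sign changed. At the late two-cell stage *Hk2* went from 0.97 to -0.01 at the lowest, and *Gpi1* from -0.13 to 0.06 at the highest.

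Counts over all genes moved as well. Leaving out 1 library at the late two-cell stage gave 910 to 1047 lower and 111 to 237 higher. The counts below are for alternatives that kept every library. At the late two-cell stage 230 genes were higher, against 482 with upper-quartile scaling, 365 with library totals, 570 with no filter, 526 with DESeq2, 359 on log2(TPM + 1) and 422 with all 18 libraries, and the lower share of the calls was 66.5% with upper-quartile scaling and 74.4% with library totals beside 1262 lower. In morulae (28 lower, 22 higher) library totals gave 88 and 40, no filter 194 and 175, DESeq2 84 and 77, log2(TPM + 1) 5 and 4, and all 18 libraries 130 and 464. All 18 libraries gave 3681 and 3012 in ICM (6098 and 6076 otherwise), and upper-quartile scaling 3606 and 5094 in 2iES cells (4352 and 4117). Library totals gave 3733 and 5992 between ICM and morula (4629 and 4788), and 7123 and 3384 between 2iES cells and ICM (5275 and 4902), and log2(TPM + 1) gave 2859 and 6542, and 7264 and 2871. For morula minus late two-cell (41 and 587) library totals gave 55 and 333, no filter 171 and 1189, DESeq2 194 and 850, log2(TPM + 1) 45 and 305 and the block 23 and 490. Their causes were not tested.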
